A study of Mus musculus with 12 samples.

Results

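The genes of the proteasome were described in Sol8 cells, a mouse myoblast line, with and without the sialic acid enzyme gene Gne. Members were the protein coding genes whose symbols start with Psm, one of the letters a to g and a number, without the 3 immunoproteasome genes Psmb8, Psmb9 and Psmb10, and with at least 120 raw counts summed over the 12 libraries. Of 54838 genes listed, 48586 had counts, 50 of these carried such a name, and 44 were members. They were 7 genes of the core alpha ring, 7 of the core beta ring, 6 ATPases, 3 genes of the scaffold and receptors of the base, 8 of the lid, 7 assembly chaperones, 5 activators and regulators, and Psmc3ip, which shares the name but encodes a recombination factor and no subunit. Just inside the minimum were Psmg3 with 1889 summed counts and Psmc3ip with 2074. Just outside were Psmb11, the thymus form of beta5, with 36, Psme2b with 10 and Psma8, the germ cell form of alpha4, with 2.

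The proteasome is the main protease for ubiquitin-tagged proteins in the cytosol and the nucleus. Its barrel, the 20S core, holds the catalytic sites inside the beta rings behind a gate formed by the alpha rings. The 19S particle, made of a ring of ATPases, scaffold subunits, ubiquitin receptors and a lid with a deubiquitinase, recognises and unfolds the substrate, while the PA28 and PA200 activators open the core without ATP. In muscle the proteasome is known for its part in the turnover of contractile proteins and in atrophy.

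RNA of 12 libraries was sequenced, 3 in each of 4 groups. These were Gne KO and WT cells in the proliferative state, grown in fetal calf serum, and Gne KO and WT cells in the differentiated state, moved to a lower share of horse serum, so that state and serum cannot be told apart. The Gne KO cells carry a frameshift deletion made with Cas9 in an early exon of Gne, and a clone of the line was compared with the unedited line, so that the deletion and the clone cannot be told apart. The libraries are labelled as biological replicates, and the study describes independent cultures as well as extraction in triplicates, without saying which of these the libraries of a group are. The p-values measure the spread between libraries within groups, as a spread per gene that all 4 groups share. They therefore rest in part on libraries outside a comparison, and the spread differed between the groups, as given below.

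Total counts ran from 22612038 to 29389759 per library. Gne itself (chr4:44034075-44084177, minus strand, GRCm38) had 231, 332 and 343 normalized counts in proliferative Gne KO libraries, against 277, 254 and 276 in WT libraries, and 204, 208 and 211 in differentiated Gne KO libraries, against 276, 283 and 263 in WT libraries. A count over the whole gene does not see a small deletion, and the labels were not checked by it. The summed level of 8 myotube markers was 792 to 1795 in proliferative Gne KO libraries, against 22538 to 67094 in WT libraries, and 1532 to 2760 in differentiated Gne KO libraries, against 93939 to 105956 in WT libraries, so the Gne KO cells labelled as differentiated held little of the myotube transcripts. Other lists moved with genotype as well. The 5 tested myoblast markers summed to 15845 to 24226 in proliferative Gne KO libraries, against 34696 to 47028 in WT libraries, and to 25070 to 26971 in differentiated Gne KO libraries, against 43085 to 48477 in WT libraries. The 4 tested fibroblast markers summed to 132108 to 156550 in proliferative Gne KO libraries, against 198481 to 241055 in WT libraries, and to 257677 to 268088 in differentiated Gne KO libraries, against 177137 to 196128 in WT libraries. Single fibroblast markers went both ways. Their log2 fold changes ran from -1.86 to 1.63 in proliferative cells (1 called higher, 1 lower) and from -0.37 to 2.03 in differentiated cells (3 higher, 1 lower). The 3 tested adipocyte markers summed to 1613 to 2172 in proliferative Gne KO libraries, against 698 to 733 in WT libraries, and the 3 tested endothelial markers to 111 to 225, against 50 to 55.2. In differentiated Gne KO libraries the adipocyte markers summed to 560 to 646, against 452 to 501 in WT libraries, with single log2 fold changes of -1.55 to 1.08. The endothelial markers went the other way there, at 33.3 to 61, against 79 to 125 in WT libraries. The 3 tested immune cell markers summed to 58.9 to 112 over all libraries. The part of such shifts in the results was not tested. The Gne KO proliferative libraries stood apart in spread: the coefficient of variation of a member within that group had a median of 14.3%, against 4.25% in the proliferative WT group, and 1.88% in the differentiated Gne KO group, against 3.28% in the differentiated WT group. They also stood apart in base composition, since the Spearman correlation over 11491 genes between a gene's GC content and its log2 deviation from the WT mean was 0.46, 0.56 and 0.62 in these 3 libraries and between -0.10 and 0.19 in the other 9.

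In TPM, computed here from the counts and exon lengths, Psmc3 (Rpt5 of the ATPase ring) was the most abundant member, at 600 over all libraries. The most abundant members of the other classes were Psmd2 (Rpn1, scaffold of the base) at 347, Psma6 (alpha1) at 342, Psmb2 (beta4) at 318, Psmd7 (Rpn8 of the lid) at 270, Psme2 (PA28beta) at 225 and the core chaperone Psmg4 (PAC4) at 93.4. The assembly chaperones Psmg3 (PAC3) at 7.82 and Psmd9 (p27) at 14.5 and the regulator Psmf1 (PI31) at 18.7 were among the lowest. Exons of all transcripts were joined for the length, which understates genes with long alternative ends. The members together took 0.567% to 0.609% of all counts in proliferative Gne KO libraries, against 0.528% to 0.585% in WT libraries, and 0.423% to 0.436% in differentiated Gne KO libraries, against 0.48% to 0.507% in WT libraries. The groups did not overlap in the differentiated state. In bulk RNA fewer cells with a transcript and less of it per cell cannot be told apart.

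Whether loss of Gne goes with a change of the proteasome genes was asked in each state. In proliferative cells 31 of 44 members (70.5%) were higher in Gne KO than in WT at an adjusted p under 0.05, where 28.2% of all 20415 tested genes were higher, and 3 members were lower, where 27.2% of all genes were lower, so that 34 members were called, where 55.4% of all genes were. In differentiated cells no member was higher, where 11.1% of all genes were, and 21 members (47.7%) were lower, where 12.5% of all genes were lower and 23.6% were called. The median log2 fold change over the members was 0.36 in the proliferative state and -0.27 in the differentiated state, and over all genes -0.02 and -0.01. Against the 7727 abundant genes, those whose normalized counts averaged 500 or more, as most members' did, the shares read 48.1% higher and 28.8% lower in proliferative cells, and 15.1% higher and 14.1% lower in differentiated cells. The effect filter of the study, which asks for a larger change at lower counts, was passed in proliferative cells by no member upwards (2.38% of all genes) and by Psmc6 and Psme4 downwards (6.88% of all genes), and in differentiated cells by no member in either direction (0.519% of all genes upwards and 2.47% downwards). The 3 libraries of Gne KO lay above the 3 of WT without overlap for 29 members in the proliferative state (29.4% of all genes) and below them for 35 members in the differentiated state (26.3% of all genes). Both higher in proliferative and lower in differentiated Gne KO cells were 14 members, where 2.45% of all genes and 4.44% of the abundant genes were. They were found in the core (Psma2, Psma6, Psma7, Psmb3, Psmb6, Psmb7), the ATPase ring (Psmc1, Psmc2, Psmc3, Psmc5), the lid (Psmd3, Psmd7, Psmd13) and the chaperones (Psmd10). With the trend on GC content and length removed, as described below, Psmb3, Psmc1, Psmc5 and Psmd7 lost the proliferative call. Psma2, Psma6 and Psmd10 then lost the differentiated call. Leaving out single differentiated libraries also cost Psmb6, Psmd10 and Psmd13 that call, as given below.

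**Figure D1:**
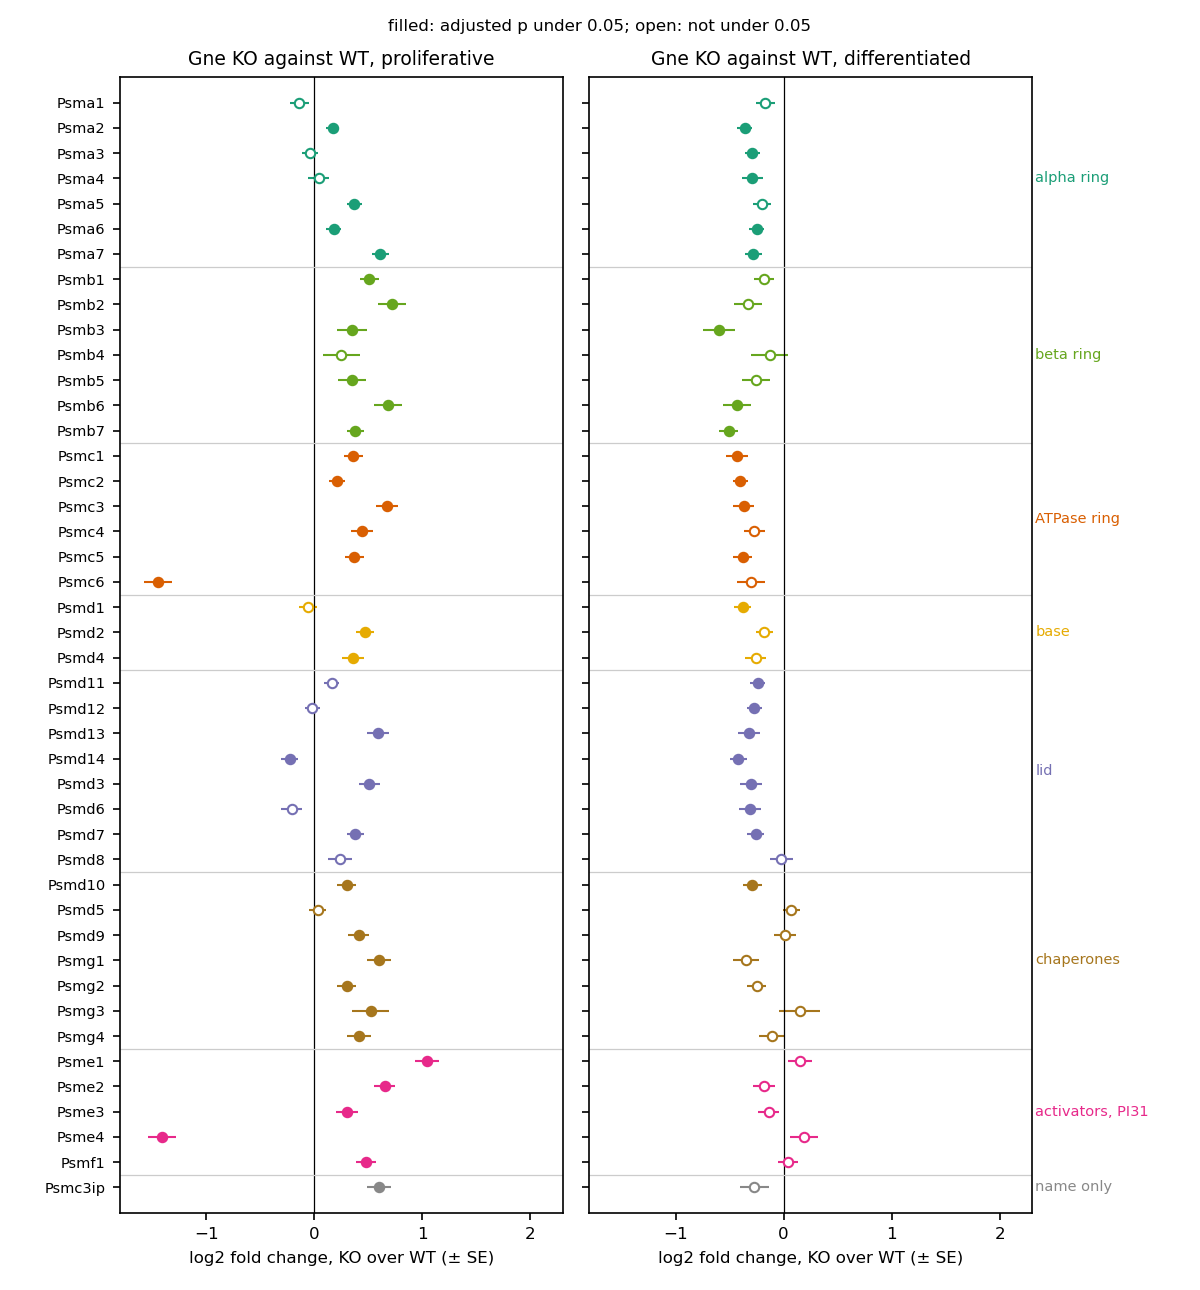
Log2 fold change of each of the 44 members, Gne KO over WT, with its standard error, in proliferative cells (left) and differentiated cells (right). Filled points passed an adjusted p of 0.05 and open points did not. Most members lie right of 0 on the left and left of 0 on the right, and Psmc6 and Psme4 lie far to the left in proliferative cells.

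These counts depended on how libraries were compared. With library size alone as the scale, which shifted the median of all genes to -0.21 in the proliferative comparison, 16 members were higher and 8 lower there, and Psma2 and Psma6 had the opposite sign. The shares of all genes were then 20.5% higher and 32.7% lower. In a fit of only the 6 proliferative libraries 19 were higher and 2 lower, where 24.8% and 27.6% of all genes were. A fit of only the 6 differentiated libraries gave 2 higher and 34 lower members. It called more of all genes as well, 22.7% higher and 22.8% lower. Without Gne KO replicate 1 of the proliferative state 5 members were lower in proliferative Gne KO cells, where 28.3% of all genes were. The 21 lower members of the differentiated state became 11 without Gne KO replicate 1 of that state, 12 without Gne KO replicate 3, 13 without WT replicate 2 and 11 without WT replicate 3. The shares of all genes that were lower were 9.12%, 9.49%, 9.61% and 10.2% in these fits, against 12.5% with all libraries.

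GC content moved with the proliferative comparison. Across the 44 members the Spearman correlation of GC content with the log2 fold change was 0.63 in proliferative cells and 0.13 in differentiated cells. It was 0.60 and 0.14 over 11491 genes whose mean was 50 or more. Members with 51% to 58% GC had a median log2 fold change of 0.42 (n = 16) in proliferative cells, against 0.50 for the 2726 abundant genes of that GC content, so that these members did not lie above genes of like composition. Members with 47% to 51% GC had 0.44 (n = 12), against 0.19 for 1772 genes, members with 43% to 47% had 0.11 (n = 10), against -0.28 for 1615 genes, and members with 40% to 43% had -0.13 (n = 6), against -0.85 for 736 genes. In differentiated cells the members' medians in these 4 classes lay between -0.30 and -0.22, against -0.06 to 0.05 for the other genes. With the trend on GC content and length removed from each library, 30 members were higher and 2 lower in proliferative cells, 22 of the 31 higher members among them, while differentiated cells had 1 higher member and 16 lower ones, 13 of the 21 lower members among them. The shares of all genes were then 31.2% higher and 17.4% lower in proliferative cells, and 14.6% and 12.8% in differentiated cells. For single members the step moved the proliferative log2 fold change both ways, to 0.38 for Psma7, 0.34 for Psmb6 and 1.09 for Psmb7, against 0.61, 0.68 and 0.38 without it, and it shifted the median of all genes to 0.11. It also moved Psmb2 to 0.44, Psmc3 to 0.34, Psmd3 to 0.25 and Psme2 to 0.38, which still passed. The part of base composition in the proliferative differences was otherwise not tested.

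**Figure D2:**
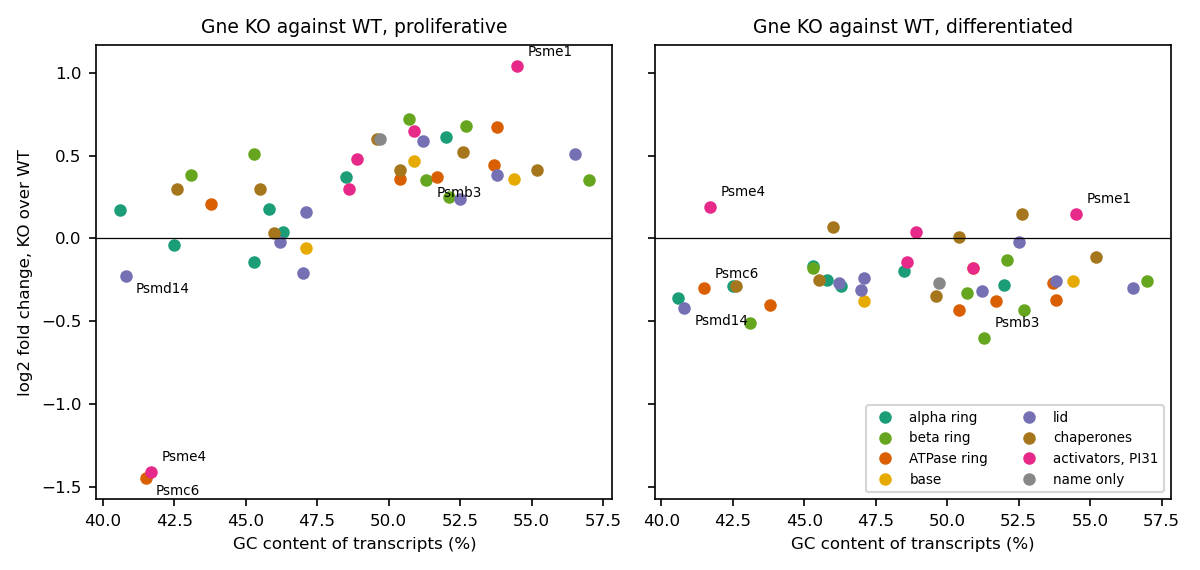
GC content of the transcripts of each member (horizontal, in percent) and its log2 fold change, Gne KO over WT (vertical), coloured by class, in proliferative cells (left) and differentiated cells (right). The points climb with GC content on the left (Spearman 0.63) and lie in a flat band, most of them below 0, on the right (0.13).

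In the alpha ring, whose 7 subunits form the gate of the core, 4 genes (57.1%) rose in proliferative Gne KO cells and none fell. There 28.2% of all genes and 48.1% of the abundant genes rose, and 27.2% and 28.8% fell. In differentiated Gne KO cells 5 alpha genes fell, where 12.5% of all genes and 14.1% of the abundant genes did. Psma7 (alpha4) had 5623, 5959 and 7077 normalized counts in proliferative Gne KO libraries, against 4187, 4025 and 3963 in WT libraries, and 2954, 3051 and 2953 in differentiated Gne KO libraries, against 3608, 3529 and 3749 in WT libraries. The groups did not overlap in either state, and the direction differed between the states. On the log2 scale the difference was 0.61 ± 0.08 (SE, adjusted p = 1.44e-05) in proliferative cells and -0.28 ± 0.08 (adjusted p = 0.0224) in differentiated cells. Psma5 (alpha5) followed in proliferative cells with 0.37 ± 0.07, and Psma2 (alpha2) led in differentiated cells with -0.36 ± 0.07. With the GC trend removed Psma2 had -0.26 there and an adjusted p of 0.138, and Psma3, Psma4 and Psma6 lost the call too, which left Psma7. Psma1, Psma3 and Psma4 lay between -0.14 and 0.04 in proliferative cells and did not pass.

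The beta ring carries the 3 catalytic subunits. Of its 7 genes 6 rose in proliferative Gne KO cells, where 28.2% of all genes and 48.1% of the abundant genes did. In differentiated Gne KO cells 3 fell, where 12.5% and 14.1% did. Psmb6 (beta1, caspase-like activity) had 3371, 5054 and 5128 normalized counts in proliferative Gne KO libraries, against 2983, 2657 and 2673 in WT libraries, and 1803, 1857 and 1691 in differentiated Gne KO libraries, against 2333, 2395 and 2498 in WT libraries. All Gne KO libraries were above WT in the first state and below WT in the second. Its log2 fold changes were 0.68 ± 0.13 (adjusted p = 0.000256) and -0.43 ± 0.13 (adjusted p = 0.0221). The second was not called without Gne KO replicate 1 or 3 or WT replicate 2 or 3 of that state (-0.44 to -0.40, adjusted p of 0.0583 to 0.0831). Psmb7 (beta2, trypsin-like activity) had 3668, 4111 and 4580 in proliferative Gne KO libraries, against 3375, 3116 and 2965 in WT libraries, and 1982, 1947 and 1964 in differentiated Gne KO libraries, against 2752, 2814 and 2812 in WT libraries, again without overlap and in opposite directions. Its log2 fold changes were 0.38 ± 0.08 and -0.51 ± 0.09. Psmb5 (beta5, chymotrypsin-like activity, and the site that the drug bortezomib blocks) had 1573, 1397 and 2241 in proliferative Gne KO libraries, against 1376, 1346 and 1281 in WT libraries, with Gne KO replicate 3 far above the other two. Its log2 fold change of 0.35 ± 0.13 (adjusted p = 0.0289) turned to -0.15 (adjusted p = 0.242) with the GC trend removed, and was 0.15 (adjusted p = 0.132) without Gne KO replicate 3. In differentiated cells Psmb5 had 846, 960 and 879 in Gne KO libraries, against 1062, 1097 and 1043 in WT libraries, without overlap. Its log2 fold change there, -0.26 ± 0.13 (adjusted p = 0.184), did not pass. It passed in the fit of only the differentiated libraries (adjusted p = 0.00095).

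The noncatalytic Psmb2 (beta4) had 3286, 5499 and 4307 normalized counts in proliferative Gne KO libraries, against 2759, 2561 and 2458 in WT libraries, and its log2 fold change was 0.72 ± 0.13 (adjusted p = 0.000227). Its Gne KO libraries spread widely but stayed above all WT libraries. Psmb3 (beta3) had the largest fall of all members in differentiated Gne KO cells, at 1264, 1331 and 1238, against 1923, 1956 and 1917 in WT libraries, which is a log2 fold change of -0.60 ± 0.15 (adjusted p = 0.00734). In proliferative cells Psmb3 had 2557, 2151 and 3818 in Gne KO libraries, against 2292, 2117 and 2103 in WT libraries, with overlap. Its log2 fold change there was 0.35 ± 0.14, with an adjusted p that rounds to 0.05. That call was lost with library size alone, with the GC trend removed and in the fit of only the proliferative libraries.

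The 6 ATPases, Rpt1 to Rpt6, form one hexamer. In proliferative Gne KO cells 28.2% of all genes were higher and 27.2% lower, and 48.1% and 28.8% of the abundant genes. There 5 of the ATPase genes were called higher and 1 lower. Of these 5, Psmc3 alone passed under each of 3 alternatives: Psmc1, Psmc4 and Psmc5 lost the call with the GC trend removed, Psmc1, Psmc2 and Psmc5 with library size alone, and Psmc1 and Psmc2 in the fit of only the proliferative libraries. Psmc3 (Rpt5, chr2:91054009-91066369, plus strand) had 13545, 18730 and 18101 normalized counts in proliferative Gne KO libraries, against 10816, 10238 and 10246 in WT libraries, and 7529, 7338 and 7342 in differentiated Gne KO libraries, against 9429, 9619 and 9609 in WT libraries. Neither state had an overlap. Its log2 fold changes were 0.67 ± 0.10 (adjusted p = 2.84e-05) and -0.37 ± 0.10 (adjusted p = 0.0129). Part of its exons lie opposite Slc39a13. Psmc1, Psmc2, Psmc4 and Psmc5 had log2 fold changes of 0.21 to 0.44 in proliferative cells, and in differentiated cells Psmc1 (-0.43 ± 0.10) and Psmc2 (-0.40 ± 0.07) fell most.

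Psmc6 (Rpt4, chr14:45329788-45349705, plus strand) went the other way. It had 2766, 1823 and 1670 normalized counts in proliferative Gne KO libraries, against 5834, 5407 and 5449 in WT libraries. Every Gne KO library was far below every WT library, with Gne KO replicate 1 the highest of its group. The log2 fold change was -1.45 ± 0.13 (adjusted p = 3.55e-07), the largest of all members, and it passed the effect filter. In differentiated cells Psmc6 had 3777, 3843 and 3900 in Gne KO libraries, against 4669, 4413 and 5079 in WT libraries, and its log2 fold change of -0.30 ± 0.13 (adjusted p = 0.118) was like that of the other ATPases. With a GC content of 41.5% Psmc6 belongs to the class whose genes had a median of -0.85 in proliferative cells, with 10% of them at or below -1.67. With the GC and length trend removed its log2 fold change in proliferative cells was -0.47 (adjusted p = 6.26e-05).

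In the base, Psmd2 (Rpn1) had 12072, 12917 and 14889 normalized counts in proliferative Gne KO libraries, against 10086, 9318 and 9192 in WT libraries, and 7726, 7453 and 7588 in differentiated Gne KO libraries, against 8523, 8747 and 8524 in WT libraries. The groups were apart in both states, but only the rise passed (0.47 ± 0.08, against -0.18 ± 0.08 with an adjusted p of 0.117 in differentiated cells). The ubiquitin receptor Psmd4 (Rpn10) rose by 0.36 ± 0.10, which was 0.02 with the GC trend removed. In differentiated cells Psmd4 had -0.26 ± 0.10 (adjusted p = 0.081), which passed in the fit of only the differentiated libraries (adjusted p = 3.08e-05). Psmd1 (Rpn2) fell in differentiated Gne KO cells (-0.38 ± 0.08) and had -0.06 ± 0.08 in proliferative cells.

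In the lid 7 of 8 genes fell in differentiated Gne KO cells, where 12.5% of all genes and 14.1% of the abundant genes did. In proliferative Gne KO cells 3 of 8 (37.5%) rose, between the 28.2% of all genes and the 48.1% of the abundant genes. With the GC trend removed Psmd6, Psmd11 and Psmd12 lost the call in differentiated cells. Psmd13 (Rpn9) rose by 0.59 ± 0.10 and Psmd3 (Rpn3) by 0.51 ± 0.10 in proliferative cells. Psmd14 (Rpn11, the deubiquitinase that strips ubiquitin from the substrate) had 3065, 2838 and 2609 normalized counts in proliferative Gne KO libraries, against 3487, 3278 and 3191 in WT libraries, and 1829, 1791 and 1814 in differentiated Gne KO libraries, against 2412, 2366 and 2505 in WT libraries. It was below WT in every library of both states, with log2 fold changes of -0.23 ± 0.08 (adjusted p = 0.017) and -0.42 ± 0.08 (adjusted p = 0.000778). It is named for the proliferative state after its values were seen, as the third member that was lower there. Its GC content is 40.8%, and with the GC and length trend removed it was higher in proliferative Gne KO cells (0.83, adjusted p = 2.41e-06) and still lower in differentiated ones (-0.31, adjusted p = 0.0172). Psmd8 (Rpn12) was the member of the lid that did not pass in either state.

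The 7 assembly chaperones build the core and the base and do not stay in the particle. Of them 6 rose in proliferative Gne KO cells, where 28.2% of all genes and 48.1% of the abundant genes did. Psmg1 (PAC1) had 639, 858 and 864 normalized counts in proliferative Gne KO libraries, against 507, 533 and 499 in WT libraries, and a log2 fold change of 0.60 ± 0.11 (adjusted p = 0.000255). Psmg3 (PAC3) rose by 0.52 ± 0.17, but had 0.25 and an adjusted p of 0.208 with the GC trend removed. Psmc3ip, the gene that shares only the name, had 0.60 ± 0.11 in proliferative cells and -0.27 ± 0.13 in differentiated cells. In differentiated cells Psmg1 had a log2 fold change of -0.35 ± 0.12 (adjusted p = 0.052), which passed in the fit of only the differentiated libraries (adjusted p = 0.000803). Psmd10 (gankyrin) passed, with 584, 564 and 562 in Gne KO libraries, against 683, 665 and 755 in WT libraries. Its log2 fold change there was -0.29 ± 0.09 (adjusted p = 0.0272), and -0.15 (adjusted p = 0.24) with the GC trend removed. Its call was also lost with library size alone (adjusted p = 0.077), and without each Gne KO library of that state or WT replicate 1 or 3 (adjusted p of 0.0507 to 0.12).

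All 5 genes of the activators and the regulator PI31 were called in proliferative cells, 4 higher and 1 lower, where 55.4% of all genes were called. None of the 5 was called in differentiated cells, where 23.6% of all genes were. Their log2 fold changes there were -0.18 to 0.19, but Psme2 (-0.18, adjusted p = 0.00304) and Psme4 (0.19, adjusted p = 0.000337) passed in the fit of only the differentiated libraries. Psme1 and Psme2, which lie close together on chromosome 14 (chr14:55578123-55581529, plus strand, and chr14:55587441-55591113, minus strand), encode PA28alpha and PA28beta, the interferon-inducible activator that favours antigenic peptides. Psme1 had 3208, 4552 and 4243 normalized counts in proliferative Gne KO libraries, against 1789, 1998 and 1973 in WT libraries, and 2386, 2330 and 2376 in differentiated Gne KO libraries, against 2094, 2146 and 2134 in WT libraries. It was above WT in all libraries of both states, with log2 fold changes of 1.04 ± 0.11 (adjusted p = 8.72e-07) and 0.15 ± 0.11 (adjusted p = 0.333). With the GC trend removed the rise in proliferative cells was 0.67. Psme2 rose by 0.65 ± 0.10 and Psmf1 (PI31) by 0.48 ± 0.09 in proliferative cells.

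Psme4 (PA200, the nuclear activator, chr11:30771726-30880361, plus strand) had 2882, 1665 and 1944 normalized counts in proliferative Gne KO libraries, against 5682, 5588 and 5592 in WT libraries. In differentiated cells it had 8227, 8177 and 8013 in Gne KO libraries, against 6981, 7010 and 7445 in WT libraries. Every Gne KO library was below WT in the first state and above WT in the second. The log2 fold change was -1.41 ± 0.13 (adjusted p = 4.72e-07) in proliferative cells, where it passed the effect filter, and 0.19 ± 0.13 (adjusted p = 0.324) in differentiated cells. Its GC content is 41.7% and its exons are the longest of the members, and with the trend on both removed it had -0.31 (adjusted p = 0.0025) in proliferative cells and 0.22 (adjusted p = 0.0268) in differentiated cells.

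**Figure D3:**
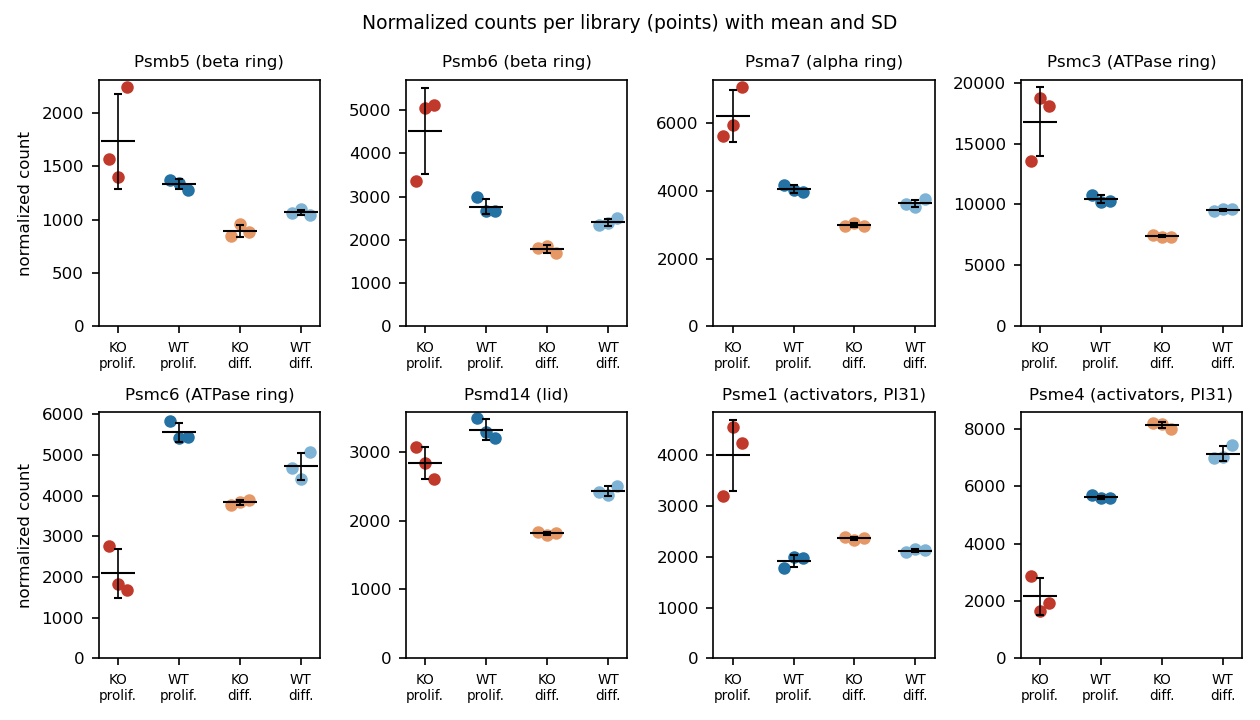
Normalized counts (vertical) of 8 members in the 12 libraries, one point per library, with the mean and SD of the 3 libraries of a group. Gne KO stands left of WT in each state. Psmb6, Psma7 and Psmc3 are highest in proliferative Gne KO cells and lowest in differentiated Gne KO cells, whereas Psmc6 and Psme4 are lowest in proliferative Gne KO cells.

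What changed on differentiation was asked within each genotype. In Gne KO cells 40 of 44 members (90.9%) were lower in the differentiated state than in the proliferative state, where 27.7% of all genes and 48.7% of the abundant genes were lower. Psmc6 and Psme4 were higher, where 28.7% of all genes were, and Psmd6 (-0.22 ± 0.10) and Psmd10 (-0.16 ± 0.09) did not pass, so that 42 members were called, where 56.4% of all genes were. In WT cells 20 members (45.5%) were lower, where 15.3% of all genes and 27.4% of the abundant genes were, and Psmd10 alone was higher (0.43 ± 0.09, adjusted p = 0.00186), where 16.6% of all genes and 17.9% of the abundant genes were. The differentiated libraries lay below the proliferative libraries without overlap for 40 members in Gne KO cells (29.5% of all genes) and for 37 members in WT cells (25.4%), and above them for 3 members in WT cells (25.9%). The median log2 fold change was -0.77 in Gne KO and -0.24 in WT. A fit of only the 6 WT libraries gave 34 lower and 3 higher, where 21.5% and 22.6% of all genes were. The proliferative Gne KO libraries enter both the genotype comparison above and this one, so that a member high in them is counted in both.

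All 7 alpha and all 7 beta genes fell on differentiation in Gne KO cells, where 27.7% of all genes and 48.7% of the abundant genes did. The falls were larger in the beta ring (median -1.06) than in the alpha ring (median -0.66), a difference that was not tested. Past the effect filter were 10 members downwards (4.84% of all genes), namely Psmb6 (-1.31), Psmb2 (-1.29), Psmb3 (-1.11), Psmb7 (-1.06), Psma7 (-1.05), Psmc3 (-1.17), Psmc5 (-1.12), Psmd13 (-1.14), Psmd3 (-1.11) and Psmg1 (-1.33), and Psme4 upwards (6.83% of all genes). Psmb6, at 1803, 1857 and 1691 normalized counts in differentiated Gne KO libraries, against 3371, 5054 and 5128 in proliferative ones, shows the size of these falls, with no library near the other group. Psme4 rose by 1.95 ± 0.13 (adjusted p = 7.59e-09), and by 0.90 with the GC and length trend removed. Psmc6 rose by 0.91 ± 0.13, but had 0.08 (adjusted p = 0.38) with the trend removed.

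In WT cells the falls were small and no member passed the effect filter (1.85% of all genes upwards and 0.847% downwards). Of the alpha genes 5 of 7 were called lower and of the lid genes 6 of 8, where 15.3% of all genes and 27.4% of the abundant genes were. No gene of the beta ring was called, at log2 fold changes of -0.32 to -0.13. All 7 passed in the fit of only the WT libraries, where 21.5% of all genes were lower. The median of the beta ring, -0.20, was close to the -0.22 of the alpha ring. Psma1 (-0.35 ± 0.09) and Psma3 (-0.34 ± 0.07) led the alpha ring, Psmd8 (-0.47 ± 0.11) and Psmd14 (-0.45 ± 0.08) the lid, and Psmc5 (-0.37 ± 0.09) the ATPases. Psme3 (PA28gamma, a nuclear activator) had 2531, 2376 and 2273 normalized counts in differentiated WT libraries, against 3489, 3636 and 3372 in proliferative ones, and fell by 0.55 on the log2 scale (SE 0.10, adjusted p = 0.000438). Psme4 had 6981, 7010 and 7445 in differentiated WT libraries, against 5682, 5588 and 5592 in proliferative ones, without overlap. Its log2 fold change of 0.35 ± 0.13 (adjusted p = 0.0522) was not called. It passed at 0.37 with the GC and length trend removed (adjusted p = 0.000706) and at 0.36 in the fit of only the WT libraries (adjusted p = 0.000173).

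**Figure D4:**
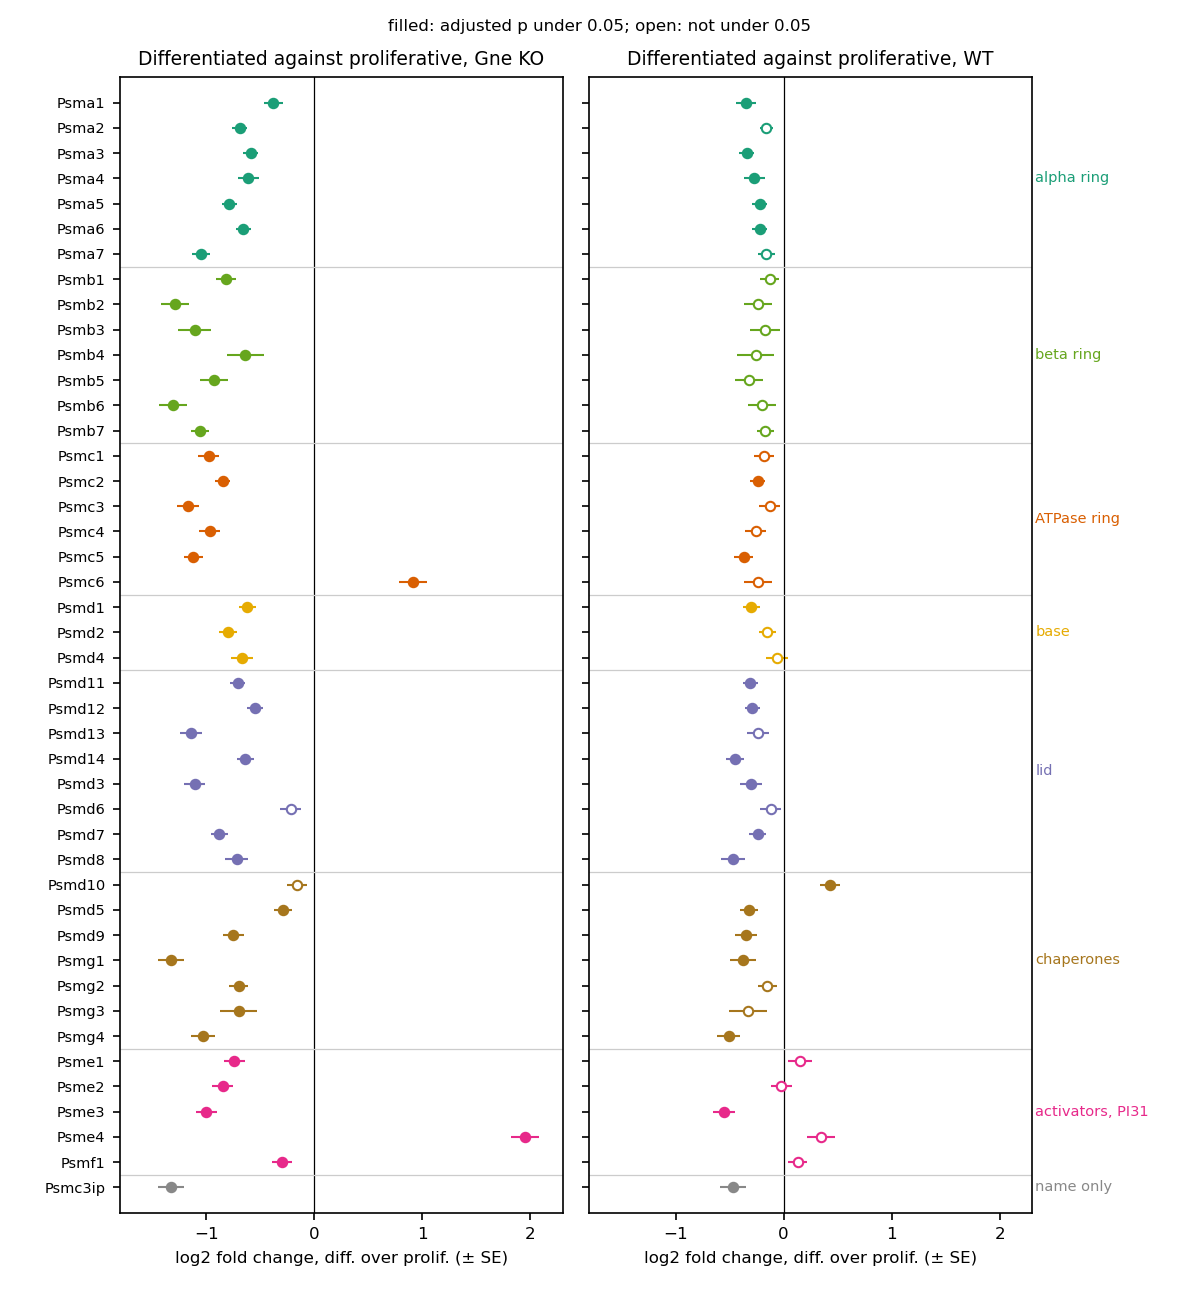
Log2 fold change of each member, differentiated over proliferative, with its standard error, in Gne KO cells (left) and WT cells (right). Filled points passed an adjusted p of 0.05. In Gne KO cells 40 members lie left of 0 with filled points, with Psmc6 and Psme4 right of it, and in WT cells the points stay close to 0.

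The test of the interaction, the effect of Gne KO in differentiated cells minus that in proliferative cells, asked whether the genotype effect differed between the states. It was negative for 32 members (72.7%), where 22.2% of all genes and 38.2% of the abundant genes were lower, and positive for 2, Psmc6 (1.15 ± 0.19) and Psme4 (1.60 ± 0.18), where 19.7% of all genes and 24.1% of the abundant genes were higher, and 41.9% of all genes were called in either direction. Psmb6 (-1.11 ± 0.18), Psmb2 (-1.05 ± 0.19) and Psmc3 (-1.04 ± 0.14) passed the effect filter downwards (2.99% of all genes), and Psmc6 and Psme4 upwards (5.53% of all genes). The mean of proliferative Gne KO cells was the highest and that of differentiated Gne KO cells the lowest of the 4 groups for 30 of 44 members (68.2%), and for 12.8% of all genes and 19.8% of the abundant genes.

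Ratios between members of one library do not depend on how libraries are scaled. They are not corrected for the GC trend of the proliferative Gne KO libraries, which can enter a ratio of genes that differ in GC content. Per exon length, the mean log2 level of the 19S subunits over that of the core was -0.20 ± 0.08 (SD, n = 3) in proliferative Gne KO libraries, against -0.05 ± 0.01 in WT libraries, and -0.07 ± 0.03 in differentiated Gne KO libraries, against -0.07 ± 0.01 in WT libraries. The beta ring over the alpha ring was -0.00, 0.11 and 0.48 in proliferative Gne KO libraries, against -0.09, -0.10 and -0.10 in WT libraries, a spread that Gne KO replicate 3 sets. In differentiated cells it was -0.15 ± 0.01 in Gne KO, against -0.06 ± 0.05 in WT.

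Psmc6 over the mean of the other 5 ATPases was -1.27, -2.21 and -2.29 on the log2 scale in proliferative Gne KO libraries, against -0.04, -0.10 and -0.04 in WT libraries, and lay between -0.17 and 0.03 in all 6 differentiated libraries. Psmc6 was thus close to the mean of the other ATPases in 3 groups and far below it in the fourth. Its GC content is 41.5%, against 43.8% to 53.8% for the other ATPases. With the GC and length trend removed, the log2 fold change of Psmc6 in proliferative cells was much smaller in size, as given above. Psme4 over the core was -2.20, -3.07 and -3.01 in proliferative Gne KO libraries, against a mean of -1.03 ± 0.03 (SD, n = 3) in WT libraries, and 0.06, 0.02 and 0.04 in differentiated Gne KO libraries, against -0.47, -0.48 and -0.41 in WT libraries. Relative to the core it was below WT in the first state and above WT in the second. Psme4 has 41.7% GC, and its fall in proliferative cells was likewise much smaller with the trend removed. Psme1 and Psme2 over the core were 0.15, 0.25 and 0.27 in proliferative Gne KO libraries, against -0.45, -0.21 and -0.25 in WT libraries, and 0.30, 0.22 and 0.33 in differentiated Gne KO libraries, against -0.01, 0.04 and -0.05 in WT libraries. This ratio was above WT without overlap in both states, by 0.53 and 0.29.

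**Figure D5:**
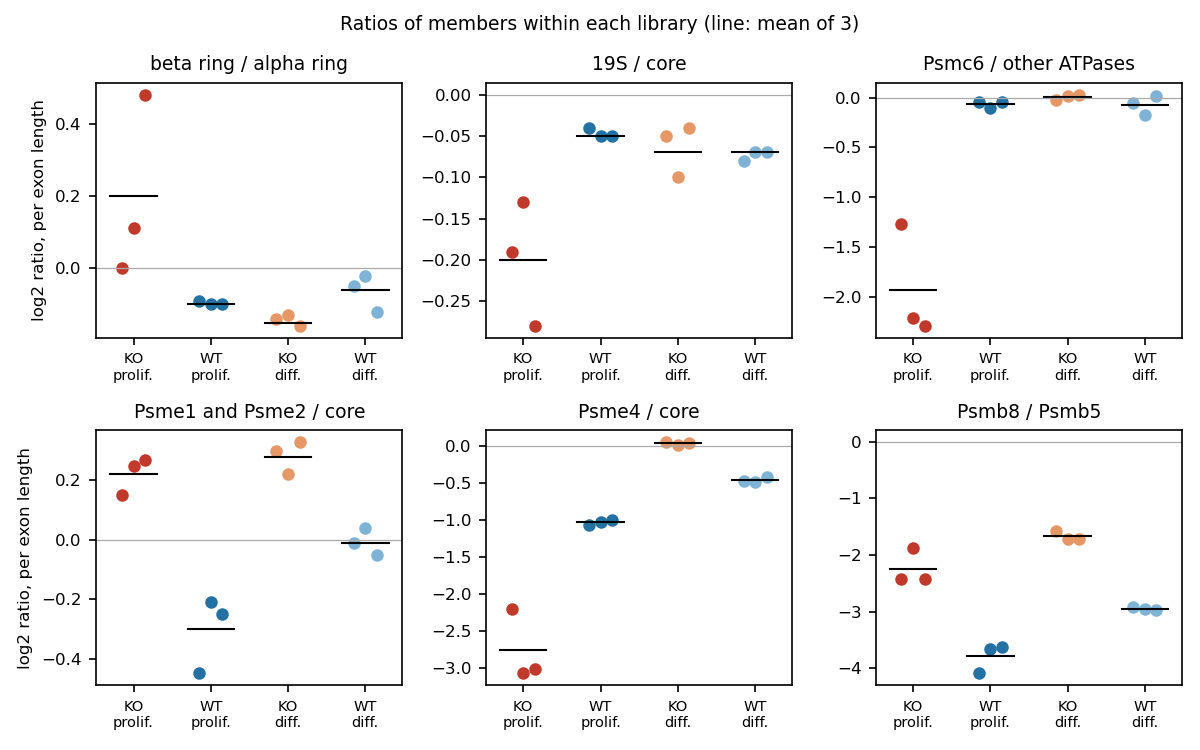
Log2 ratios of members within each library, per exon length, one point per library and a line at the mean of 3, with Gne KO left of WT in each state. Psmc6 over the other ATPases and Psme4 over the core are lowest in proliferative Gne KO libraries, and Psme1 and Psme2 over the core and Psmb8 over Psmb5 are above WT in both states. The ratios are not corrected for GC content.

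The 3 immunoproteasome genes, which replace the catalytic beta subunits under interferon and which the naming rule leaves out, rose in proliferative Gne KO cells, and Psmb8 and Psmb9 also in differentiated ones. Psmb8 (beta5i) had 1105, 1431 and 1559 normalized counts in proliferative Gne KO libraries, against 304, 401 and 391 in WT libraries, and 1065, 1094 and 1009 in differentiated Gne KO libraries, against 531, 531 and 499 in WT libraries. Every Gne KO library was far above every WT library in both states. Its log2 fold changes were 1.91 ± 0.13 (adjusted p = 2.9e-08) and 1.02 ± 0.13 (adjusted p = 2.21e-05), and those of Psmb9 (beta1i) were 1.96 ± 0.21 and 0.65 ± 0.17. Psmb10 (beta2i) rose by 1.06 ± 0.13 in proliferative cells, or 0.59 with the GC trend removed, and had -0.22 ± 0.13 in differentiated cells. Psmb8 over its constitutive counterpart Psmb5 was -2.24 ± 0.32 in proliferative Gne KO libraries, against -3.79 ± 0.26 in WT libraries, and -1.67 ± 0.08 in differentiated Gne KO libraries, against -2.95 ± 0.03 in WT libraries.

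Of 45 further genes of the pathway, 40 were tested, the immunoproteasome genes included. Of these 20 were higher and 8 lower in proliferative Gne KO cells, where 28.2% and 27.2% of all genes were, and 5 higher and 8 lower in differentiated Gne KO cells, where 11.1% and 12.5% of all genes were. Among other proteasome proteins the receptor Adrm1 (Rpn13) fell most in differentiated Gne KO cells (-0.38 ± 0.09) and the small lid subunit Sem1 rose in proliferative ones (0.57 ± 0.13, and 1.72 with the GC trend removed). Uba6, a ubiquitin-activating enzyme, had 869, 596 and 698 normalized counts in proliferative Gne KO libraries, against 1938, 2010 and 2182 in WT libraries, a fall as large as that of Psmc6 (-1.51 ± 0.11). With the GC trend removed it had 0.17 (adjusted p = 0.143). The scaffold Ecpas likewise had -0.79 ± 0.12 and 0.07 with the trend removed. Uba1, the main ubiquitin-activating enzyme, rose by 0.75 ± 0.10 in proliferative Gne KO cells. Of the shuttles and the p97 unfoldase 7 of 9 rose there (28.2% of all genes and 48.1% of the abundant genes), Bag6 most (0.66 ± 0.10). In differentiated Gne KO cells Vcp, which encodes p97, fell (-0.40 ± 0.08).

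Nfe2l1 encodes NRF1, the factor that raises proteasome genes when the proteasome is blocked. It had 9019, 11023 and 10132 normalized counts in proliferative Gne KO libraries, against 9433, 8303 and 8920 in WT libraries, and 11116, 10354 and 11227 in differentiated Gne KO libraries, against 14921, 15178 and 14305 in WT libraries. The groups overlapped in the first state and were apart in the second, with log2 fold changes of 0.17 ± 0.08 (adjusted p = 0.0812) and -0.44 ± 0.08 (adjusted p = 0.000784). The change in proliferative cells passed with sample quality weights (0.27, adjusted p = 0.0071) and without proliferative Gne KO replicate 1 (0.25, adjusted p = 0.00409). In WT cells Nfe2l1 rose on differentiation by 0.74 ± 0.08. In Gne KO cells it had 0.12 ± 0.08, which passed at 0.25 with the GC trend removed, at 0.39 with library size alone and at 0.24 without proliferative Gne KO replicate 2. The interaction was -0.62 ± 0.11 (adjusted p = 0.00054). Ngly1, the glycanase that activates NRF1, had -0.55 ± 0.12 in proliferative cells, and 0.52 with the GC trend removed. Of the 11 genes of such factors 3 were higher and 3 lower in proliferative Gne KO cells, close to the 28.2% and 27.2% of all genes.

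NRF1 binds antioxidant response elements, and proteasome promoters are also known for CCAAT boxes, so the letters TGACNNNGC and CCAAT were searched on both strands in the RefSeq promoter windows (GRCm38.p6), from 250 bases before to 50 after a gene's start. Of 44 members 37 had a window. The first motif was in 6 of these (16.2%), against 14% of 27025 genes, and the second in 13 (35.1%), against 41.1% of genes, so neither share stood out from all promoters. Before the start alone the shares were 13.5% against 11.5%, and 35.1% against 37.5%. The members with TGACNNNGC included the catalytic Psmb5 and Psmb6 and Psmc6 and Psme4, which fell in proliferative Gne KO cells, but not Psmd14, the third gene that was lower there. Of the 7 alpha ring genes 5 had CCAAT and none had TGACNNNGC. A match is a description and does not show a site.

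The stretches with TGACNNNGC are shown because they carry the motif in genes that moved in opposite directions. The start is that of RefSeq. For all of these genes but Psmb6 it lies inside the gene as the counts define it, and by far the deepest for Psmd9. Up to 25 bases stand on each side and none after the start beyond the motif, the motif is in capitals, and where it lies on the opposite strand its reverse complement is shown.
Psmb5 (chr14:54618009-54618067, minus strand, motif at -47 to -39): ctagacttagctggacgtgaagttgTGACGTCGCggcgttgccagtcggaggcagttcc
Psmb6 (chr11:70525323-70525356, plus strand, motif at -9 to -1): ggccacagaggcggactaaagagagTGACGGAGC
Psmc6 (chr14:45329574-45329630, plus strand, motif at -227 to -219): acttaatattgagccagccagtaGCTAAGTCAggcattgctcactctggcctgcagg
Psmd12 (chr11:107479278-107479314, plus strand, motif at -247 to -239): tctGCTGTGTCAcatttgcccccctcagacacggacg
Psmd9 (chr5:123228134-123228189, plus strand, motif at -31 to -23): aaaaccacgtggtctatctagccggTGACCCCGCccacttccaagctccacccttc
Psme4 (chr11:30771743-30771776, plus strand, motif at -7 to 2): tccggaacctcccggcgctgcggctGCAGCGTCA
The log2 fold changes of these 6 genes in proliferative cells ran from -1.45 (Psmc6) and -1.41 (Psme4) over -0.02 (Psmd12) to 0.35 (Psmb5), 0.41 (Psmd9) and 0.68 (Psmb6).

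The alpha ring stretches are shown as the class in which CCAAT was most frequent, with the nearest box before the start that reads CCAAT on the gene's own strand in capitals.
Psma1 (chr7:114276185-114276239, minus strand): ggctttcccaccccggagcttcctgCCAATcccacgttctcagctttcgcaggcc
Psma2 (chr13:14613163-14613217, plus strand): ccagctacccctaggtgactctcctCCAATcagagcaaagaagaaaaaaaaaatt
Psma3 (chr12:70974459-70974513, plus strand): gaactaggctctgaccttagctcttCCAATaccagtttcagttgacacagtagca
Psma6 (chr12:55384168-55384221, plus strand): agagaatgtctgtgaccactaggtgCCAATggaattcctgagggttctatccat
Psma7 (chr2:180042631-180042685, minus strand): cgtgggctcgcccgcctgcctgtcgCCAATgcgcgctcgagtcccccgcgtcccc
The first base of the box stood at -98 (Psma1), -54 (Psma2), -139 (Psma3), -29 (Psma6) and -196 (Psma7) from the start, and the log2 fold changes of these genes in proliferative cells ran from -0.14 (Psma1) to 0.61 (Psma7), the whole range of the ring.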

How the data were processed

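RNA of 12 libraries of Sol8 cells, 3 in each of 4 groups taken from the sample labels, was analysed. The authors prepared libraries with a stranded mRNA kit, trimmed reads (cutadapt 1.18 per the submitters' processing notes), aligned them to GRCm38 (TopHat2 2.1.1) and counted them per gene (HTSeq 0.6.1). No source used here says how strand entered the counting, and the values of the 10 members whose exons overlap a gene on the opposite strand, and of 3 that overlap one on the same strand, are therefore uncertain. The deposited table holds raw counts per gene and library, with question marks in place of counts for 6252 genes, which were left out. Because of these the columns could not be classed as plain counts, and limma's voom was used. The deposited normalized counts, fold changes and p-values of the authors' own comparisons were not used.

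Genes with at least 10 summed counts were kept (20415). Libraries were scaled by trimmed means of log ratios (30% and 5% trimmed), 1 voom model of limma 3.58.1 (R 4.3.3) held all 4 groups, and p-values were adjusted over all tested genes by the Benjamini-Hochberg method. Normalized counts are raw counts divided by these library factors. A call is an adjusted p under 0.05. The effect filter further requires normalized counts that average 5 or more and a log2 change, in size, over 0.9 plus 7.5 divided by the root of that average. Exon lengths and GC content came from GENCODE transcripts of the same build. The fit was tested on simulated data with 200 changed genes, the same spread setting in all libraries and no GC trend. That test does not cover the unequal spread and the GC trend of these libraries. Replicate numbers were not taken as pairs, since the deviations of same-numbered libraries correlated by -0.38 to 0.12 over 18 pairs of groups and numbers. Genes were named by a rule: in each comparison the 2 members of each class with the largest absolute log2 fold change, members past the effect filter, the 3 catalytic subunits, the most abundant member of each class per exon length, and from the other lists the 2 with the largest change, those past the filter, the immunoproteasome genes and Nfe2l1. Members and lists were chosen with earlier results of these data known. Alternatives were other scalings and filters, limma-trend, quality weights, a replicate block, removal of the GC and length trend, and leaving out each library.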

Additional observations from a re-analysis of the deposited data

Results flagged for a closer look

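The effect of Gne KO differed between the differentiated and the proliferative state, by the interaction term of the voom fit, for 34 members, where 41.9% of all genes were called. The effect was lower in the differentiated state for 32 members and higher for 2, where 22.2% and 19.7% of all genes were. Of the abundant genes 38.2% were lower and 24.1% higher. On the log2 scale the interaction was -0.58 for Psma5 and -0.89 for Psma7 in the alpha ring. In the beta ring it was -1.05 for Psmb2, -0.61 for Psmb5, -1.11 for Psmb6 and -0.89 for Psmb7. In the ATPase ring it was -1.04 for Psmc3 and 1.15 for Psmc6, in the base -0.65 for Psmd2 and -0.62 for Psmd4, and in the lid -0.91 for Psmd13 and -0.81 for Psmd3. Among the chaperones it was -0.60 for Psmd10 and -0.95 for Psmg1, and among the activators -0.89 for Psme1 and 1.60 for Psme4. Psmc3ip, which is no subunit, had -0.86. The immunoproteasome genes had -0.89 for Psmb8, -1.31 for Psmb9 and -1.28 for Psmb10. With the trend on GC content and length removed, 32 members were lower and 2 higher, where 23.4% and 12.9% of all genes were. Of these members 27 and 2 were calls without that step. With it Psmc6 had 0.27 and Psme4 0.53. Psmb5 then had -0.07 (adjusted p = 0.733) and Psmd4 -0.27 (adjusted p = 0.0749), and with library size alone Psmb5 had -0.39 (adjusted p = 0.113) and Psmd10 -0.37 (adjusted p = 0.0555), so these calls were lost. The proliferative Gne KO libraries differ from the rest in GC trend and in spread, and the part of this in the interaction was otherwise not tested.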

How the results depend on the processing

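With library size alone, 16 members were higher and 8 lower in proliferative Gne KO cells against WT, where 20.5% and 32.7% of all genes were. That scale shifted the median of all genes to -0.21 there, to 0.34 in the state comparison of Gne KO cells and to 0.20 in the interaction. Fits of only the libraries compared gave 19 higher members in proliferative Gne KO cells, 2 higher and 34 lower in differentiated Gne KO cells, and 3 higher and 34 lower on differentiation in WT cells. The matching shares of all genes were 24.8%, then 22.7% and 22.8%, then 22.6% and 21.5%. Sample quality weights gave 2 higher and 35 lower in differentiated Gne KO cells, where 22.1% and 23.1% of all genes were. On differentiation in WT cells they gave 2 higher and 34 lower, where 24.9% and 24.6% of all genes were. Median-of-ratios size factors and no filter on low counts each gave 2 higher on differentiation in WT cells, where 16.9% and 10.7% of all genes were. With the GC and length trend removed, with or without the replicate block, 1 member was higher in differentiated Gne KO cells, 1 on differentiation in Gne KO cells and 2 in WT cells, and with the block 1 had a positive interaction. The matching shares of all genes were 14.6%, 23.3% and 18.2% without the block. With it they were 13.5%, 23.2% and 17.6%, and 12.3% for the positive interaction. The causes were not tested.

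Same-numbered libraries were not shown to be pairs. With the replicate block alone, 29 members were higher and 3 lower in proliferative Gne KO cells, 0 and 19 in differentiated Gne KO cells, 2 and 40 on differentiation in Gne KO cells, 1 and 18 in WT cells, and 2 and 32 had a positive and a negative interaction. In the same order the shares of all genes were 27.7% and 27.2%, 10% and 11.8%, 28.5% and 27.3%, 15.7% and 14.6%, and 19.2% and 21.5%.

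Leaving out each library gave 25 to 33 higher and 2 to 5 lower members in proliferative Gne KO cells, 0 to 2 and 11 to 30 in differentiated Gne KO cells, 2 to 2 and 40 to 41 on differentiation in Gne KO cells, 1 to 3 and 14 to 29 in WT cells, and 2 to 2 and 29 to 34 for the interaction. The shares of all genes were 25.7% to 30.1% and 23.3% to 28.4% in proliferative cells. In differentiated cells they were 7.26% to 16% and 9.12% to 16.6%. On differentiation they were 25.4% to 29.8% and 25% to 30% in Gne KO, and 12.3% to 20.2% and 12.4% to 19.8% in WT. For the interaction they were 16.9% to 23.1% and 18.2% to 26.4%. The 5, the 2 and 30 in differentiated Gne KO cells, and the 3 and 29 in WT cells came without proliferative Gne KO replicate 1.

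With the GC and length trend removed, and with the replicate block added, the sign turned in proliferative Gne KO cells for Ecpas (0.07 and 0.07), Ngly1 (0.52 and 0.51), Psmb5 (-0.15 and -0.14) and Uba6 (0.17 and 0.17), on differentiation in Gne KO cells for Uba6 (-0.33 and -0.34), and in the interaction for Ecpas (-0.06 and -0.06). Without the block, it also turned for the called members Psmd14 (0.83) and Psmg4 (-0.06) in proliferative Gne KO cells and for Psmg4 in the interaction (0.03). Of 143 named results 96 kept direction and side of the threshold under every alternative. In the fit with a spread per gene shared by all 4 groups, differences near the standard errors of about 0.1 on the log2 scale were not detectable. Fits of only the libraries compared had other standard errors. For Psmb5 the standard error of the genotype effect was then 0.16 in proliferative and 0.05 in differentiated cells, against 0.13 in both with the shared spread.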
